A study of Canis lupus familiaris with 26 samples.

Results

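Elastic fibres give stroma its recoil. They consist of a core of elastin laid down on microfibrils, which are built from fibrillins, and fibulins and microfibril-associated glycoproteins sit at the surface of both. Microfibrils also hold latent TGF-beta in the matrix through the latent TGF-beta binding proteins, so that the same structures serve as scaffold and as growth factor store. Fibroblasts are a main source of these proteins in connective tissue.

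The genes described here are 6 of this system out of 18466 in the count table: LTBP2, FBN2, MFAP4, FBLN1, EFEMP1 and ADAMTSL4. They were measured by RNAseq in stroma of simple mammary adenomas, which are benign tumours of the glandular epithelium, from female dogs. Adenoma-associated stroma (AAS, which the labels name cancer-associated stroma) and normal stroma next to unaltered glands of the same slides were cut out by laser-capture microdissection from formalin-fixed, paraffin-embedded (FFPE) surgical tissue. Each of 13 dogs gave 1 sample of either kind, and no agent or allele separates the groups. Of these 26 samples, 24 from 12 dogs (pairs 3 to 13 and 15) were compared. Their dogs were 6 to 13 years old and the blocks 4 to 29 months. Pair 14 was left out for the low depth of its normal stroma sample.

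The members were selected on their measured difference between AAS and normal stroma in these samples, so that their differences between the groups are a description and carry no independent support. The 24 libraries held between 419770 and 1614120 counts. In the AAS sample of pair 7, 84.9% of all counts fell on 1 gene, and 1 count there equals 9.34 normalized CPM (counts scaled for library size and composition), against 0.51 to 3.50 CPM in the other 23. AAS samples of pairs 8, 10 and 15 had the lowest totals besides. Fibroblast markers were present in every sample, and the expression of CDH1, an epithelial adhesion gene, averaged 104 ± 34.3 CPM in normal stroma and 153 ± 62.5 CPM in AAS (SD, n = 12 each), so that this epithelial transcript was detected in both groups.

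The fitted fold changes were positive for LTBP2 and FBN2 and negative for FBLN1, EFEMP1, MFAP4 and ADAMTSL4. The groups were compared by edgeR's quasi-likelihood test without a pair term. The thresholds were an adjusted p under 0.05 and an absolute log2 fold change over 1. LTBP2, FBLN1 and EFEMP1 were past both, among the 5 members tested. Of all 4544 genes tested, 82 were (1.8%). FBN2 had too few counts for that test. It was past both thresholds in the fit that kept every gene with a mean of at least 5 counts, where 153 of 7763 genes were (1.97%). FBN2 entered that fit through AAS, with 396 counts there against 14 in normal stroma, so that its adjusted p is a description only. In 6 of 12 pairs LTBP2 and FBN2 were higher and the other 4 members lower. No member separated the groups completely, while all 12 AAS samples lay above all 12 normal stroma samples for 0.044% of the genes tested and below them for 0.176%.

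**Figure D1:**
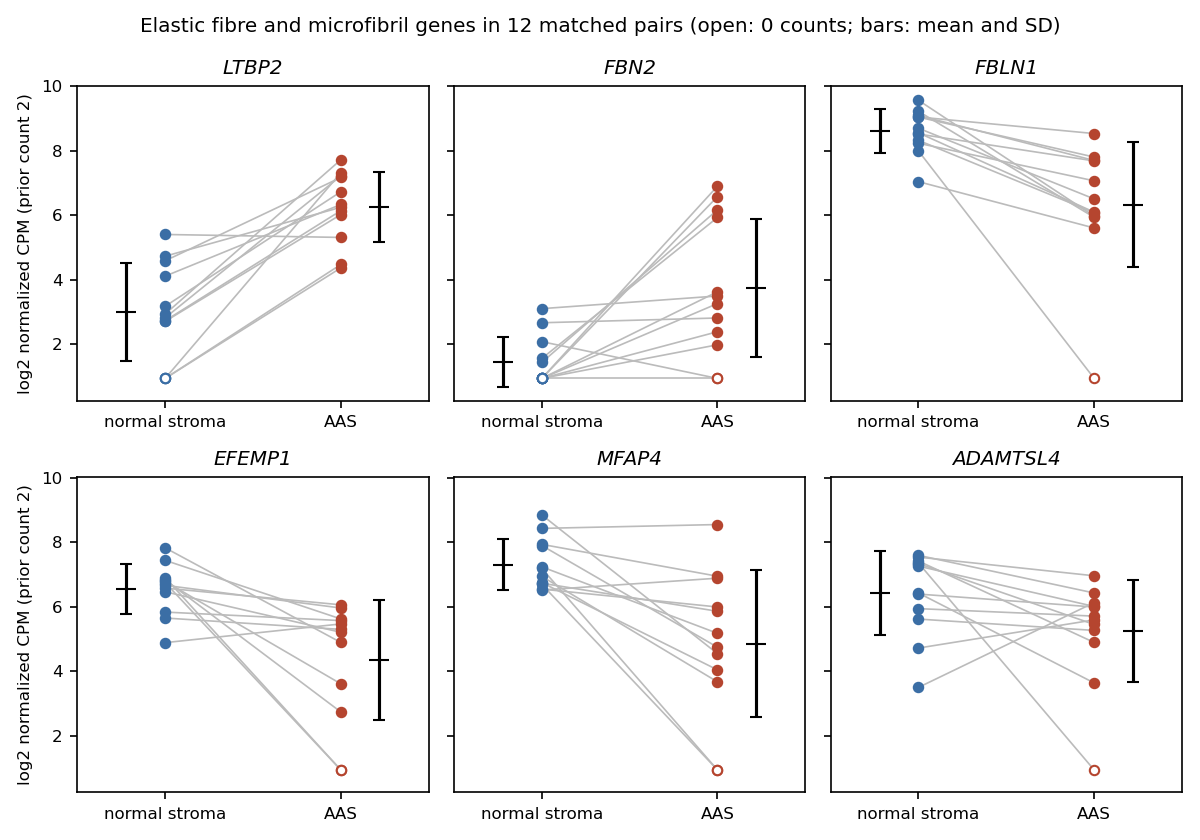
Log2 normalized CPM (prior count 2, y axis) of the 6 members in normal stroma and AAS, with a line joining the samples of 1 dog, open circles for samples with 0 counts, and the mean and SD of 12 samples beside the points. LTBP2 was higher in AAS in 11 pairs and FBN2 in 10, whereas FBLN1 was lower in all 12, EFEMP1 in 11, and MFAP4 and ADAMTSL4 in 10 each.

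LTBP2 encodes a microfibril-associated member of the latent TGF-beta binding protein family that, unlike its relatives, does not bind latent TGF-beta itself. In normal stroma it was close to the limit of detection. Counts ran from 0 to 30 with a median of 5.5, and the samples of pairs 5, 7 and 12 had none. Normalized, this was a lowest value of 0, a median of 5.42 and a highest of 40.3 CPM. In AAS the lowest value was 18.7 CPM, the median 76.3 CPM and the highest 209 CPM. That lowest value, in pair 7, rested on 2 counts against 0 in normal stroma, with 1 count worth 9.34 CPM. The ranges overlapped, but 9 of 12 AAS samples lay above the highest normal stroma sample. The mean rose from 10.8 ± 12.5 to 93.4 ± 59.6 CPM (SD, n = 12 each), a log2 fold change of 3.17 (SE 0.56, edgeR adjusted p = 0.000456). Within dogs, the AAS sample exceeded the normal stroma sample by 3.26 ± 1.64 in log2 CPM (SD, n = 12 pairs).

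Pair 12 showed the widest LTBP2 difference, from 0 counts to 143. Pair 3 followed, from 5 to 261 counts. Pair 4 was the exception, with 40.3 CPM in normal stroma, the highest of that group, and 37.7 CPM in AAS. This order rests on the scaling, since the counts were 19 and 42, and 1 count equals 2.12 CPM in that normal stroma sample and 0.90 in AAS. In that normal stroma sample 45.3% of all counts fell on 1 gene. The LTBP2 difference between the groups held its direction and stayed past both thresholds in all 24 alternative analyses, with log2 fold changes of 2.92 to 3.78 (adjusted p = 6.56e-12 to 0.0140).

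LTBP2 overlaps another gene, ISCA2, which encodes a mitochondrial iron-sulfur cluster assembly protein. A dog annotation of another build (UU_Cfam_GSD_1.0) places their gene spans so, and whether their exons overlap was not examined. ISCA2 had many more counts and moved alongside. Its values in normal stroma ran from 17.5 to 208 CPM with a median of 74.9, and in AAS from 244 to 2736 CPM with a median of 603. Every AAS sample lay above every normal stroma sample, and no pair ran against this. Its log2 fold change was 3.27 (SE 0.40, edgeR adjusted p = 3.91e-06).

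Summed over samples, ISCA2 had 11.3 counts for each LTBP2 count in normal stroma and 10.2 in AAS. From sample to sample this ratio ran from 0.71 to 29.8 in the 9 normal stroma samples with LTBP2 counts, and from 4.94 to 27.0 in AAS. The normal stroma samples without LTBP2 counts, those of pairs 5, 7 and 12, had 76, 124 and 68 ISCA2 counts. Across the 12 AAS samples the log2 CPM of both genes rose together (Pearson r = 0.78, adjusted p = 0.00592, Spearman rho = 0.83, adjusted p = 0.00258, two-sided permutation tests adjusted over both groups, chosen after the values were seen), and r was 0.68 without the 2 samples farthest from the median of ISCA2. Across the 12 normal stroma samples r was -0.23 (adjusted p = 0.466) and rho -0.15 (adjusted p = 0.648). The library kit keeps the strand of the RNA, but whether strand was used in counting is not given in the sources used here, so that reads of these overlapping genes cannot be told apart with certainty and the LTBP2 values are uncertain to that extent.

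**Figure D2:**
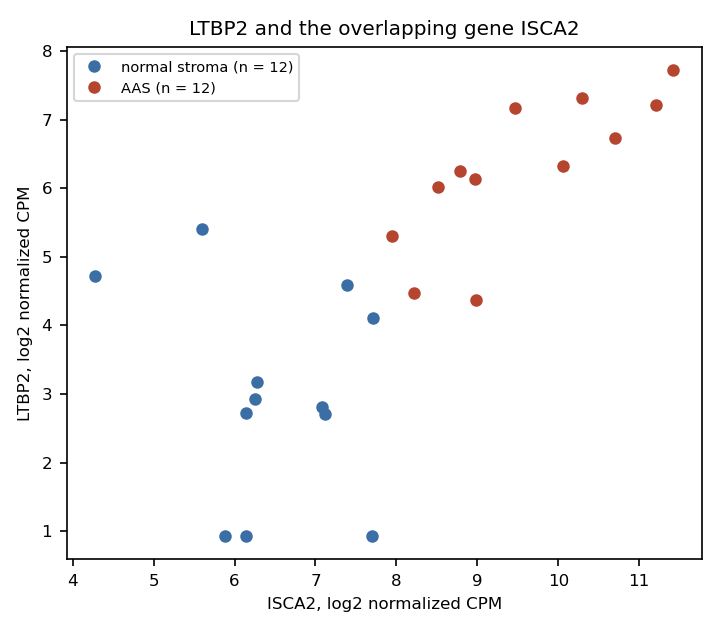
LTBP2 (y axis) against the overlapping gene ISCA2 (x axis), both as log2 normalized CPM, in 12 normal stroma samples (blue) and 12 AAS samples (red). AAS samples rise together on both axes (r = 0.78), normal stroma samples do not (r = -0.23), and the groups separate completely along the ISCA2 axis.

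FBN2 encodes fibrillin-2, a microfibril subunit best known from development. It was nearly undetected in normal stroma, where 7 of 12 samples had no count and the other 5 had 1 to 5, in sum 14 counts. In AAS 10 of 12 samples had at least 1 count and the sum was 396. The spread among them was wide. AAS of pairs 5, 11, 8 and 15 had 186, 69, 53 and 49 counts, together 357, and the other 8 AAS samples shared 39. Normalized values ran from 0 to 6.65 CPM in normal stroma with a median of 0, and from 0 to 118 CPM in AAS with a median of 8.49.

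The 4 high AAS samples lay between 59.0 and 118 CPM, and the other 8 between 0 and 10.4 CPM, so that the rise was uneven across dogs. In all, 7 of 12 AAS samples were above the highest normal stroma sample, of which that of pair 7 held 1 count, worth 9.34 CPM. FBN2 was higher in AAS in 10 pairs, lower in pair 10 (2 counts against 0) and at 0 in both samples of pair 4. In pairs 7 and 9 the higher value rested on 1 and 10 counts in AAS and 4 and 5 counts in normal stroma. The fitted log2 fold change of 4.59 (SE 0.91, edgeR adjusted p = 0.00186) depends on so few counts in normal stroma that it is a rough size only. The RNA integrity measure DV200, entered as a covariate, left FBN2 short of the threshold (3.50, SE 1.03, edgeR adjusted p = 0.0751, the highest of 22 alternatives, which began at 2.04e-05). Its neighbour SLC12A2, an ion transporter gene, had a log2 fold change of -0.16 (SE 0.80, adjusted p = 0.986).

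FBLN1 encodes fibulin-1, a glycoprotein of elastic fibres and basement membranes, and it was the member that fell most regularly. In normal stroma its lowest value was 130 CPM, its median 394 CPM and its highest 756 CPM. In AAS the lowest was 0, the median 77.7 CPM and the highest 369 CPM. All 12 AAS samples were below the normal stroma median and 7 of 12 below the lowest normal stroma sample. The mean fell from 426 ± 172 to 127 ± 104 CPM (SD, n = 12 each), and the log2 fold change was -1.71 (SE 0.37, edgeR adjusted p = 0.00508).

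All 12 pairs moved the same way for FBLN1, as 45 of 4544 genes did towards lower values (0.99%). The size ran from pair 9, where CPM went from 528 to 369, to pair 10, where 220 counts in normal stroma stood against 0 in AAS. FBLN1 stayed past both thresholds in all 24 alternatives, from -2.08 to -1.31 (adjusted p = 7.71e-10 to 0.0265). The least negative value came from leaving out pairs 7, 8, 10 and 15, the pairs with the AAS libraries named above (SE 0.29, edgeR adjusted p = 0.0165).

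EFEMP1 encodes fibulin-3, a short fibulin that binds elastic fibre components and the protease inhibitor TIMP-3. Its values ran from 27.6 to 225 CPM in normal stroma with a median of 102, and from 0 to 64.7 CPM in AAS with a median of 36.2. The ranges overlapped, and all 12 AAS samples were below the normal stroma median. The mean fell from 104 ± 53.4 to 31.3 ± 22.8 CPM (SD, n = 12 each), a log2 fold change of -1.73 (SE 0.47, edgeR adjusted p = 0.0450).

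The dogs fell apart in how far EFEMP1 differed. In pairs 12 and 15 it went from 140 and 103 counts to 0, and in pair 13 from 112 to 4.73 CPM. In pairs 5, 7 and 9 the difference in log2 CPM was only -0.26, -0.35 and -0.52, and in pair 4 the AAS value was higher (27.6 against 42.2 CPM). The AAS value of pair 7 rested on 4 counts, so that the size of its difference is uncertain. The call was close to the threshold. It was lost with the pair as a replicate block (log2 fold change -2.07, SE 0.58, edgeR adjusted p = 0.0533), without pairs 7, 8, 10 and 15 (-1.50, adjusted p = 0.256), and in 8 of the 12 fits that left out 1 pair, those without pair 3, 5, 7, 8, 10, 11, 12 or 13. Over these 12 fits the log2 fold change ran from -1.91 to -1.57 and the adjusted p from 0.0364 to 0.146. With pair 14 added, the log2 fold change was -1.12 (SE 0.49, adjusted p = 0.386), the least negative of 24 alternatives, whose adjusted p began at 0.000703.

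MFAP4 encodes a fibrinogen-domain glycoprotein of microfibrils that binds elastin and collagen. In normal stroma its lowest value was 89.7 CPM, its median 132 CPM and its highest 459 CPM. In AAS the lowest was 0, the median 29.5 CPM and the highest 373 CPM. Of the AAS samples, 9 of 12 were below the lowest normal stroma sample, more than for any other member. Among the pairs that fell, the difference in log2 CPM ran from -6.26 in pair 10, with 0 counts in AAS, to -0.56 in pair 12. The 2 pairs with higher AAS values were pair 9 (343 against 373 CPM) and pair 13 (89.7 against 116 CPM).

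The AAS sample of pair 9 held 732 of the 1172 MFAP4 counts of AAS and kept the group mean high, at 69.5 ± 104 CPM against 182 ± 117 CPM in normal stroma (SD, n = 12 each). The log2 fold change of -1.39 (SE 0.53, edgeR adjusted p = 0.258) did not pass. Without pair 9 it was -2.07 (SE 0.49, adjusted p = 0.0143), and with the pair as a replicate block -2.18 (SE 0.49, adjusted p = 0.0127), 1 of 115 genes past both thresholds among 4544 (2.53%). The adjusted p of MFAP4 lay between 0.000778 and 0.590 over 24 alternatives. With the block, both MFAP4 and EFEMP1 were past the thresholds by DESeq2 (adjusted p = 0.000778 and 0.000703) and in the edgeR fit with a mean of at least 5 counts (adjusted p = 0.00149 and 0.0155).

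ADAMTSL4 encodes an ADAMTS-like protein without protease domain that binds fibrillin-1 and is known for its role in the eye's zonular fibres. Its values ran from 9.36 to 191 CPM in normal stroma with a median of 118, and from 0 to 123 CPM in AAS with a median of 48.3. Only 1 AAS sample, that of pair 15 with 0 counts against 158 in normal stroma, was below the lowest normal stroma sample. Pairs 6 and 12 went the other way, pair 6 from 9.36 to 68.0 CPM. The log2 fold change was -1.12 (SE 0.43, edgeR adjusted p = 0.269), which did not pass, and -0.55 (SE 0.43, adjusted p = 0.821) without pairs 7, 8, 10 and 15, the highest of 24 alternatives, which began at 0.0470.

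**Figure D3:**
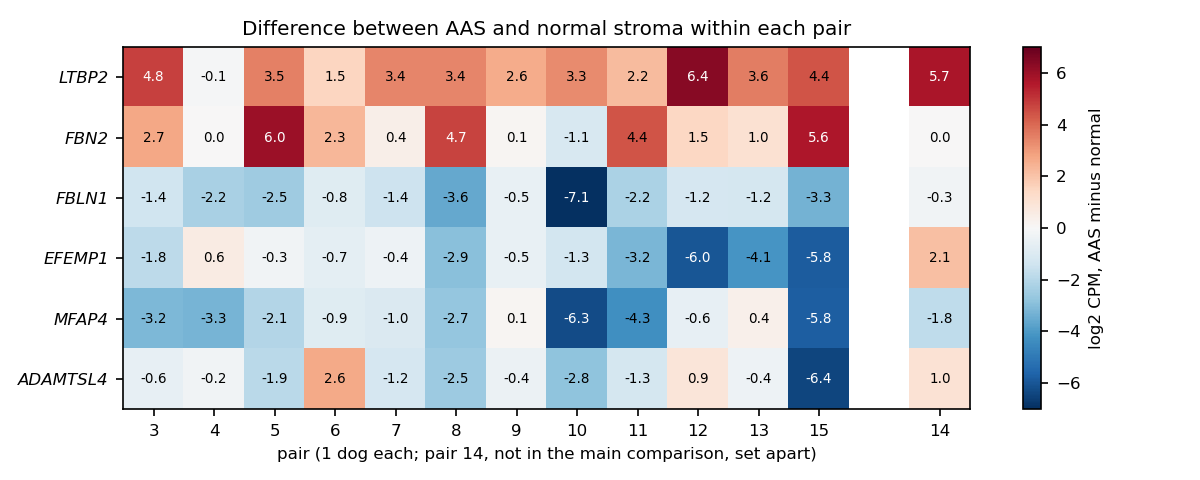
Difference in log2 CPM between AAS and normal stroma (colour and number, AAS minus normal stroma) for each member (rows) in each pair (columns), with pair 14, which is outside the main comparison, at the right. The deepest falls of FBLN1 and MFAP4 are in pair 10 and that of ADAMTSL4 in pair 15, whereas pair 9 lies between -0.52 and 0.12 for these 3 and EFEMP1. In each of these deepest falls AAS held 0 counts, so that the size depends on the prior count and the depth.

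Whether a dog with a high level in one stroma also had it in the other was asked across the 12 pairs, and no member passed. Pearson's r ran from -0.25 for EFEMP1 to 0.41 for FBLN1 (adjusted p = 0.622 for all 6, two-sided permutation tests adjusted over the 6 members), and Spearman's rho from -0.37 to 0.34 (adjusted p = 0.811 for all 6).

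Nor did a relation among members within a group pass after adjustment. For 15 member pairs in 2 groups, the largest r were 0.73 between MFAP4 and ADAMTSL4 and 0.71 between FBLN1 and MFAP4, both in AAS (adjusted p = 0.0963 each, two-sided permutation tests adjusted over 30 relations). Spearman's rho was 0.51 (adjusted p = 0.443) and 0.61 (adjusted p = 0.314). Without the 2 samples farthest from the median of the first gene named, r was 0.15 and 0.40. In the 11 AAS samples left without pair 7, FBLN1 and MFAP4 passed (r = 0.79, adjusted p = 0.0129, rho = 0.87, adjusted p = 0.0315). FBLN1 and EFEMP1, both fibulins, had r = 0.65 in normal stroma (rho = 0.62, adjusted p = 0.267 and 0.314) and -0.05 in AAS (rho = 0.33, adjusted p = 0.903 and 0.756). The difference between the groups was not tested.

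The age of the block was related to 1 member. In AAS, LTBP2 was lower in older blocks (r = -0.80, adjusted p = 0.0487, two-sided permutation test adjusted over 24 relations), but Spearman's rho of -0.67 did not pass (adjusted p = 0.188). Without the 2 samples farthest from the median block age r was -0.54. Without pair 7, whose block was the oldest and whose AAS sample had 2 LTBP2 counts, r was -0.72 and rho -0.55 (n = 11), and neither passed after adjustment. In normal stroma FBLN1 and EFEMP1 had r = -0.74 (adjusted p = 0.0594) and -0.68 (adjusted p = 0.114) with block age, with rho of -0.70 and -0.64 (adjusted p = 0.188 each). Neither passed. Age of the dog passed with no member, and the largest r was 0.65 for FBN2 in normal stroma (rho = 0.63, adjusted p = 0.125 and 0.188). There 7 of 12 samples had 0 FBN2 counts, and r was 0.37 without the 2 samples farthest from the median age.

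Fibroblast markers were also lower in AAS, to differing degrees. Of 9 fibroblast markers, 7 had an identifier, and all 7 had a negative log2 fold change, with DCN (decorin) and VIM (vimentin) past both thresholds at -1.96 (SE 0.45, edgeR adjusted p = 0.00996) and -1.13 (SE 0.24, adjusted p = 0.00419). The collagen genes COL1A1, COL1A2 and COL3A1 were at -1.26, -1.36 and -1.03 and did not pass. PDGFRA and THY1 were at -0.44 (SE 0.31, adjusted p = 0.737) and -0.39 (SE 0.24, adjusted p = 0.643). They were lower in AAS in 8 and 7 pairs. Their summed level ranged from 2321 to 22311 CPM in normal stroma and from 783 to 7824 CPM in AAS, and was lower in AAS in 10 pairs. In bulk samples fewer fibroblasts and less RNA per fibroblast cannot be told apart.

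Set against the mean log2 CPM of the 7 markers in the same sample, FBLN1 differed by -1.03 ± 1.50 between AAS and normal stroma (SD, n = 12 pairs) and was lower in 9 pairs, where the unscaled difference was -2.29 ± 1.78. EFEMP1 differed by -0.93 ± 2.28 (lower in 5 pairs), MFAP4 by -1.19 ± 2.05 (lower in 7) and ADAMTSL4 by 0.08 ± 2.13 (lower in 6). LTBP2 differed by 4.52 ± 2.03 and was higher in 12 of 12 pairs. In pair 4 this came through the lower markers alone, since the unscaled difference was -0.09 and the relative one 0.83. FBN2 differed by 3.56 ± 2.71, but in pair 4, with 0 counts in both samples, and in pair 10, with 2 counts in normal stroma and 0 in AAS, its relative value was above 0 through the lower markers alone.

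Other cell types were covered thinly. The summed epithelial markers EPCAM, CDH1 and KRT19 (3 of 8 with an identifier) ranged from 90.3 to 238 CPM in normal stroma and from 95.5 to 292 CPM in AAS. The smooth muscle and myoepithelial markers ACTA2 and MYLK (2 of 6) ranged from 33.2 to 182 CPM and from 37.3 to 376 CPM and were higher in AAS in 10 pairs. Leukocyte markers (3 of 7) ranged from 142 to 639 CPM and from 259 to 962 CPM, endothelial markers (2 of 7) from 9.22 to 89.2 CPM and from 0 to 63.4 CPM, and the adipocyte marker LEP (1 of 5) from 0 to 4.25 CPM and from 0 to 6.76 CPM. No marker with an identifier was at 0 throughout. Their part in the members' differences was not tested.

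**Figure D4:**
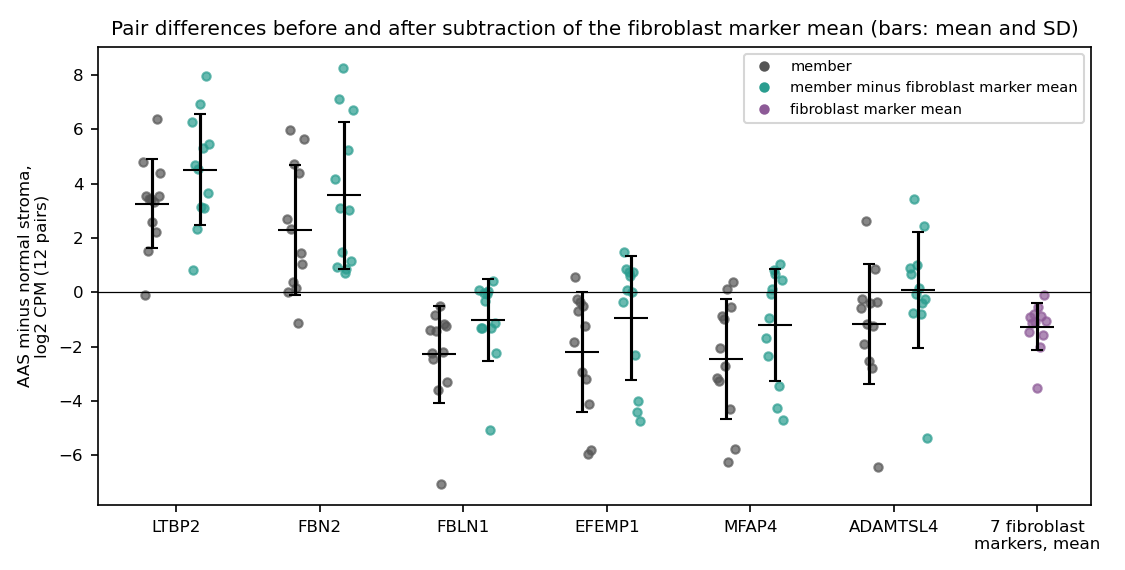
Difference between AAS and normal stroma in log2 CPM (y axis) in 12 pairs for each member (grey), for each member after subtraction of the mean of 7 fibroblast markers (green), and for that mean itself (purple), with mean and SD. LTBP2 lies above 0 in all 12 pairs after the subtraction, in pair 4 through the markers alone, and ADAMTSL4 centres on 0.08. The FBN2 points of pairs 4 and 10 follow the markers, since AAS had 0 FBN2 counts there.

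The genes most alike in pattern to each member over the 24 samples were found among 1855 to 1856 tested genes with a symbol. The likeness is a description, since members that differ between the groups resemble other genes that do. FBLN1 was closest to DCN (Pearson r = 0.94, and 0.90 after the group means were subtracted), followed by MMP2, a matrix metalloprotease (0.91 and 0.86), and VIM (0.89 and 0.81). MFAP4 was also closest to MMP2 (0.86 and 0.79), then to TNS2 (0.85 and 0.82) and TACC2 (0.81 and 0.72). EFEMP1 was closest to PLPP3 (0.83 and 0.71), LTBP4 (0.82 and 0.78), itself a latent TGF-beta binding protein, and ADAM15 (0.82 and 0.80).

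ADAMTSL4 was closest to SMC5 (0.84 and 0.82), SPSB1 (0.84 and 0.83) and DCST2 (0.83 and 0.81). For these 4 members the likeness remained over 0.7 within the groups. For the 2 higher members it fell much further. LTBP2 was closest to CD74, the invariant chain of antigen presentation (0.80 and 0.46), SFRP1, a secreted Wnt inhibitor (0.78 and 0.48), and the overlapping ISCA2 (0.73 and 0.22). FBN2 was closest to PMEPA1, a TGF-beta-induced gene (0.70 and 0.46), CDH11, a mesenchymal cadherin (0.68 and 0.45), and SFRP1 (0.66 and 0.41). The 4 lower members had 0 counts in 1 or 2 AAS samples each. LTBP2 had 0 counts in 3 normal stroma samples, and FBN2 in 7 of them and in 2 AAS samples. How far such samples shape these r was not tested.

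The rest of the system was examined in lists of 64 other genes. Of these, 25 had an identifier and 19 were tested, and none was past both thresholds by edgeR. An unadjusted edgeR p below 0.05 was found for 10, as for 477 of all 4544 genes. DESeq2 called 2 of the 19 and 134 of all 4544. The median log2 fold change of the 19 was -0.59, against 0.01 over all 4544 genes, with 14 of 19 negative against 2233 of 4544. Symbols were known more often for genes that differed between the groups (70 of 1856 tested genes with a symbol were called, against 12 of 2688 without), so that these shares cannot be read as those of the whole system.

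Elastin itself, ELN, averaged 45.6 ± 25.4 CPM in normal stroma and 33.2 ± 31.5 CPM in AAS (SD, n = 12 each), with higher and lower values in 6 pairs each and a log2 fold change of -0.39 (SE 0.46, edgeR adjusted p = 0.895). FBN1, the main fibrillin of adult tissue, averaged 247 ± 120 and 196 ± 170 CPM and was lower in 9 pairs (log2 fold change -0.31, SE 0.42, adjusted p = 0.914). Neither passed. FBN2 was selected on its difference between the groups and read from another fit, so that its passing gives no comparison with them. The difference between the fibrillins was not tested. MFAP5, a microfibril-associated glycoprotein, changed sign with the model, at 1.73 (SE 0.85, adjusted p = 0.475) without and -1.12 (SE 0.85, adjusted p = 0.750) with the pair as a block.

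Of the 2 latent TGF-beta binding proteins tested beside LTBP2, LTBP1 was at -0.59 (SE 0.51) and LTBP4 at -0.73 (SE 0.41), neither past the threshold (adjusted p = 0.821 and 0.597). The 4 fibulins and hemicentins ran from -1.78 for HMCN2 to 0.99 for FBLN5, and none passed. The 3 proteases able to cleave elastin or to activate such enzymes, MMP2, MMP14 and CTSK, were at -1.33, -0.78 and -1.29 and none passed. ADAMTSL1, the nearest relative of ADAMTSL4 tested, was at -1.58 and did not pass. Among TGF-beta genes TGFBR3 and CCN2 were at -1.05 and 0.31, and among integrins ITGAV, ITGA5 and ITGB1 at 0.54, -0.96 and -0.25, none past the thresholds. No lysyl oxidase had an identifier.

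With the pair as a replicate block, MMP2 (-1.75, SE 0.35, edgeR adjusted p = 0.00407), lower in 12 of 12 pairs, and ITGA5, the alpha chain of a fibronectin receptor (-1.07, SE 0.29, adjusted p = 0.0434), were past both thresholds, 2 of 19. Of all 4544 genes, 115 were (2.53%). In the fit with a mean of at least 5 counts, 2 of 23 list genes were, against 153 of all 7763 (1.97%). They were the cysteine protease gene CTSK (-1.30, SE 0.37, edgeR adjusted p = 0.0488) and MMRN1, an EMILIN family member of vessels and platelets (-3.10, SE 0.77, adjusted p = 0.0183). The main filter removed MMRN1, which averaged 22.1 ± 16.5 CPM in normal stroma and 2.26 ± 3.50 CPM in AAS (SD, n = 12 each). It entered the fit through normal stroma, so that its adjusted p is a description only. Both pairs of genes were lower in AAS, and no gene of the lists was called higher in either fit. Of all called genes, 86 of 115 were lower with the block and 89 of 153 with the mean filter. The lists carry the bias of the symbols towards changed genes.

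**Figure D5:**
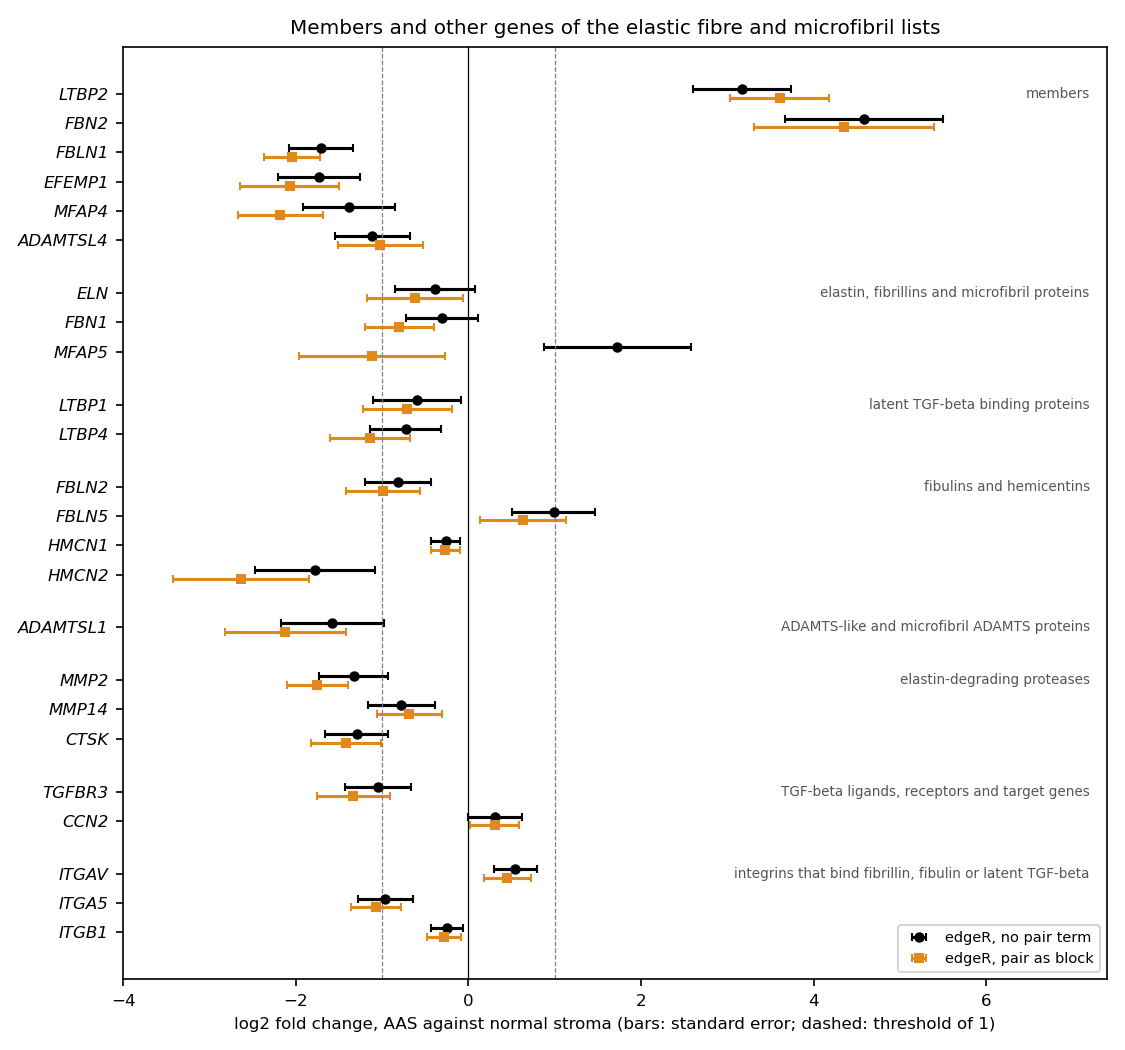
Log2 fold change of AAS against normal stroma (x axis) with its standard error for the 6 members and other tested genes of the lists, from edgeR without a pair term (black) and with the pair as a block (orange), with dashed lines at the threshold of 1. FBN2 is from the fit with a mean of at least 5 counts. LTBP2 and FBN2 stand at 3.17 and 4.59, and MFAP5 changes sign between the models.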

How the data were processed

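Per the labels and the methods, the authors sequenced total RNA of laser-captured FFPE stroma with a stranded kit for small inputs (the input is given as 4 ng in the labels and differently in the methods), quantified reads with kallisto 0.44.0 against CanFam3.1 transcripts and summed them per gene. The deposited values are estimated counts without normalization and were whole numbers for 18466 genes. Members and gene lists were chosen with earlier results of these data known. Identifiers came from the symbols of the study's supplementary tables (3302 genes), the readable part of which favours changed genes.

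Samples were grouped by their labels. After filterByExpr and TMM normalization, edgeR 4.0.16 (R 4.3.3) gave quasi-likelihood tests, with Benjamini-Hochberg adjustment over all genes tested. FBN2, removed by the filter, was read from a fit that kept genes averaging 5 counts or more. CPM are TMM-scaled, and log2 CPM carry a prior count of 2. Counts fixed the precision of low values: 3 counts equalled 1.53 to 28.0 CPM, counting error only. Between samples of a group the biological coefficient of variation was 66.7%. Correlations used two-sided permutation tests with 100000 resamples (scipy 1.17.1). The main edgeR test had no pair term and treated the 24 samples as independent, so that the matching within dogs was left out. Correlation p-values are over dogs. The script was tested on simulated data.

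Named genes were the members, their neighbours in a table of another build (UU_Cfam_GSD_1.0, no coordinates used), called list genes, ELN, FBN1 and the 3 genes most alike to each member. The pair number marks the same dog. Deviations from the group means correlated by 0.13 on average within dogs (-0.03 to 0.40) and -0.01 between dogs (-0.27 to 0.42). The ranges overlapped. Alternatives were the pair as a block, DESeq2 1.42.0 with and without it, RLE normalization, other filters, all 13 pairs, DV200 as covariate, leaving out the 10 most counted genes, and leaving out each pair. Leaving out pairs 7, 8, 10 and 15, and the block with all 13 pairs or with the mean filter, were added after seeing the data. The values of 1 tested list gene are not reported here.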

Additional observations from a re-analysis of the deposited data

Results flagged for a closer look

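The AAS sample of pair 14, outside the main comparison, held LTBP2 at 103 CPM (103 counts), above all normal stroma samples of the 12 pairs compared, the highest of which had 41.8 CPM when all 13 pairs were normalized together. The normal stroma sample of this dog had 0 LTBP2 counts, but only 83727 counts in all, so that 3 counts there equal 35.8 CPM without further scaling. ISCA2 stood at 1052 CPM in the same AAS sample, also above all 12. No other member passed that mark in it.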

How the results depend on the processing

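LTBP2 and FBLN1 kept their call in all 24 alternatives. FBN2, which met the mean filter through its AAS counts, kept it in 21 of 22 and lost it with DV200 as covariate (3.50). EFEMP1 lost it in 13 of 24: with RLE normalization (-1.72), all 13 pairs (-1.12), all 13 pairs with the replicate block (-1.77), the replicate block (-2.07), without pairs 7, 8, 10 and 15 (-1.50), and in 8 fits without 1 pair (-1.91 to -1.57 over the 12). MFAP4 gained it in 6: with the replicate block (-2.18), DESeq2 with the block (-2.36), all 13 pairs with the block (-2.14), the mean filter with the block (-2.24), no filter (-1.35), and without pair 9 (fits without 1 pair ran from -2.07 to -1.08). ADAMTSL4 gained it with no filter only (-1.10). The causes were not tested. Fits without 1 pair gave 2.94 to 3.58 for LTBP2, -1.95 to -1.54 for FBLN1, 3.98 to 5.15 for FBN2 and -1.28 to -0.93 for ADAMTSL4, and 71 to 99 called genes in all. No direction reversed. Called genes numbered 82, against 134 with DESeq2, 227 with DESeq2 and the block, 153 with the mean filter, 183 with that filter and the block, and 1690 of 18441 with no filter, where 74.4% were higher in AAS against 34.1% of the 82. With the replicate block 115 were called, with all 13 pairs 87, and with these and the block 111. The median log2 fold change of all genes was 0.22 with no filter and 0.01 in the comparison reported. Called genes of the other lists numbered 0, against 2 with DESeq2, 6 with DESeq2 and the block, 1 with all 13 pairs, 2 with these and the block, 2 with the mean filter, 5 with that filter and the block, 4 with no filter, 2 with the replicate block, and 0 to 2 in fits without 1 pair. Without pair 7, 1 relation among members passed in place of 0, and 0 with age or block age in place of 1, where r of LTBP2 in AAS with block age was -0.72 against -0.80.

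Depth limits FBN2, with 14 counts over all normal stroma samples, and LTBP2 in normal stroma. In the AAS sample of pair 7, 3 counts equal 28.0 CPM, so that low members could not be measured there. The lists rest on few identifiers, and 1 sample per dog and tissue leaves variation within a stroma unmeasured.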

Other observations

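Pair 14 gives the members' values in a further dog, with all 13 pairs normalized together. In AAS FBLN1 stood at 266 CPM, EFEMP1 at 226 CPM, MFAP4 at 107 CPM, ADAMTSL4 at 148 CPM and FBN2 at 0. The EFEMP1 value was above all 12 other AAS samples, the highest of which had 67.1 CPM, and below 1 of the 12 other normal stroma samples. The ADAMTSL4 value was also above all 12 other AAS samples (highest 126 CPM). The normal stroma sample of the pair held 43 counts of FBLN1, 51 of MFAP4, 10 of ADAMTSL4, 7 of EFEMP1 and 0 of LTBP2 and FBN2.

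Other neighbours of the members had too few counts to compare. PNPT1 and CCDC85A, on either side of EFEMP1, each averaged 1.25 counts per sample, and SLC27A6, beside FBN2, averaged 2.71.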
